A study of Mus musculus with 6 samples.

Results

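The plasminogen activation system was followed through 5 genes in NMuMG cells, an established epithelial line from the normal mouse mammary gland, treated with TGFβ1. The members are the rows of the gene count table whose symbol is Plau, Plat, Plaur, Serpine2 or Serpinb2, so they are 5 of the 21240 genes counted, and each has its own row. Cells were held without serum and, by the paper's methods, without insulin for 6 h. They were then given 5 ng/ml TGFβ1 for 2 h, the same TGFβ1 for 12 h, or the vehicle for 2 h. The vehicle was dilute hydrochloric acid with bovine serum albumin (Tris-HCl in the sample labels). Each condition has 2 biological replicates, 6 libraries of stranded total RNA in all. All 6 share the line and the start without serum and insulin, and no vehicle was taken at 12 h. The longer time without serum and insulin and the longer time with TGFβ therefore cannot be told apart there.

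Plasmin, the main fibrin-degrading protease, is made from its precursor plasminogen by a pair of secreted serine proteases. These are the urokinase-type activator uPA (gene Plau), which acts largely at the cell surface, and the tissue-type activator tPA (gene Plat), best known from clot lysis. uPA is held at the surface by its lipid-anchored receptor uPAR (gene Plaur), and serpin inhibitors oppose both activators. Among those inhibitors are protease nexin 1 (gene Serpine2), which also inhibits thrombin, and PAI-2 (gene Serpinb2), a serpin that stays mostly inside the cell. In epithelial cells the system is known from matrix breakdown during migration and wound closure, and plasmin can release TGFβ from its latent form.

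Of the 5 genes, Plau and Plaur rose at both times, Plat passed the test at neither, and both inhibitor genes had at most 4 reads in any library. Plau was 2.57-fold above vehicle at 2 h and 3.02-fold above it at 12 h, and Plaur was 1.65-fold and 1.67-fold above it. The gene for an activator and the gene for its receptor were therefore higher in TGFβ-treated cells, while the gene for the other activator stood at 0.882 times the vehicle level at 2 h and 0.992 times at 12 h.

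Depth was 14705886 to 23786993 counts per library, and the replicates correlated at 0.978 to 0.993 (Pearson's r of log2 expression across genes, which are not independent replicates). The labelled epithelial identity was checked with 6 marker genes. Cdh1, Krt8, Krt18 and Krt19 were abundant in each library, whereas Epcam had 2 to 16 reads and Cldn7 had none in 5 libraries and 7 in the other. The summed level of the 6 markers ran from 4964 to 5784 CPM in vehicle, from 6444 to 6479 CPM at 2 h and from 10327 to 10375 CPM at 12 h, and its part in the members' differences was not tested. At 2 h Krt8 (1683 and 1765 CPM), Krt18 (2489 and 2471 CPM) and Cdh1 (609 and 452 CPM) lay above both vehicle libraries, and Krt19 (1663 and 1791 CPM) overlapped them. The rise of the sum at 12 h came from Krt8 and Krt18. Krt8 was at 1016 to 1133 CPM in vehicle and 3298 to 3367 CPM at 12 h, and Krt18 at 1918 to 2383 and 6132 to 6249 CPM. Krt19 was lower in both 12 h libraries (420 and 490 CPM) than in vehicle (1666 and 1847 CPM), and Cdh1 overlapped between them (363 and 421 CPM in vehicle, 338 and 407 CPM at 12 h). Of 5 macrophage and blood markers, the defining genes Ptprc and Adgre1 had at most 4 reads, and the summed level, held mostly by Cd14, was 156 to 162 CPM in vehicle, 171 to 180 CPM at 2 h and 107 to 118 CPM at 12 h. The 4 endothelial markers summed to 0.177 to 0.255 CPM in vehicle, 0.353 to 0.354 CPM at 2 h and 1.74 to 1.95 CPM at 12 h, where Cdh5 held nearly all of it (1 and 2 reads in vehicle, 6 and 5 at 2 h, 39 and 36 at 12 h), and Pecam1, Kdr and Tek had at most 2 reads in any library. The 4 fibroblast markers summed to at most 3.64 CPM in any library, with overlapping groups. The part of the macrophage and endothelial markers in the members' differences was not tested. In bulk RNA, fewer cells of a type and less RNA per cell cannot be told apart.

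Promoter sequence was at hand for 3 of the 5 members in the RefSeq windows of GRCm38.p6, and the windows of Plaur and Serpinb2 are shown because both hold a match to the AP-1 motif TGANTCA although Plaur had 728 or more reads in each library and Serpinb2 at most 1. Each line gives the 250 bases before the annotated start site, 5′ to 3′ on the plus strand of the build, which is also the gene's strand, with the motif match in capitals.

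Plaur, chr7:24462233-24462482: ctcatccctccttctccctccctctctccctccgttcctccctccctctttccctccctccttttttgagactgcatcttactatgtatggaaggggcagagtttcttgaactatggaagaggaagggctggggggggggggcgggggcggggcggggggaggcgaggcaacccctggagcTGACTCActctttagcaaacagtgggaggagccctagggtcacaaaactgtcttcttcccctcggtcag

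Serpinb2, chr1:107511173-107511422: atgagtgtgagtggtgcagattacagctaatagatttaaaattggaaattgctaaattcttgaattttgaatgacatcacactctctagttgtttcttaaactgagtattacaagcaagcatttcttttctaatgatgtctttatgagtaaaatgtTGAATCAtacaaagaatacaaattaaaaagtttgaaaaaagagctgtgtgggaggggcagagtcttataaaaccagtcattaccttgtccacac

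The match in the Plaur promoter is TGACTCA, with its first base 69 bases before the start site (position -69). The match in the Serpinb2 promoter is TGAATCA at position -94, and a further RefSeq start site of Serpinb2 downstream places the same match at -181. TGANTCA was searched on both strands, which it matches alike, and 7.81% of the 32851 windows of 300 bases in the table hold it. The GC content of the whole window was 59.3% for Plaur and 35.3% for Serpinb2, against 77.7% for Serpine2. In the Serpine2 window, none of TGANTCA, GTCTAGAC and CACCTG was matched, and the SMAD motif CAGAC was matched once, on the reverse strand at -209, a motif that 49.6% of all windows hold. None of CAGAC, GTCTAGAC, held by 0.213% of windows, and the E-box CACCTG, held by 20.2%, was matched in the Plaur or Serpinb2 windows. A match is a description of the letters, and binding was not measured here.

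Plau (gene identifier 18792) lies at chr14:21655884-21662610 on the plus strand of NCBIM37, the build of the count table. It was counted at 67 and 104 reads in vehicle replicates 1 and 2, at 220 and 316 reads at 2 h, and at 304 and 363 reads at 12 h. After scaling to CPM (counts per 1000000 counts) with TMM factors, which correct for differences in library composition, these were 3.95 and 6.63 CPM in vehicle, 11.1 and 15.9 CPM at 2 h, and 13.3 and 18.6 CPM at 12 h. The 4 TGFβ libraries all lay above both vehicle libraries, the 2 h and 12 h libraries overlapped, and replicate 2 was the higher one in each group. The group means were 5.29 CPM ± 1.90 (SD, n = 2) in vehicle, 13.5 CPM ± 3.40 at 2 h and 15.9 CPM ± 3.82 at 12 h.

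By edgeR's quasi-likelihood test over the 11080 genes that reached 2 CPM in 2 or more libraries, Plau rose at 2 h by a log2FC of 1.36 (SE 0.324, Benjamini-Hochberg adjusted p = 0.0362). At 12 h the log2FC was 1.59 (SE 0.324, edgeR adjusted p = 0.00792). Between 12 h and 2 h the difference was 0.23 on the log2 scale (SE 0.305, edgeR adjusted p = 0.583), so no further rise was resolved, which does not show that the level stayed the same. Among all tested genes, 96.9% had a smaller log2FC than Plau at 2 h and 95.9% at 12 h. Only 2 libraries a group stand behind these values. The 2 h call was lost when the fit held only the 2 groups compared (log2FC 1.35, adjusted p = 0.0798) and without vehicle replicate 1 (1.03, 0.173), TGFβ 2 h replicate 2 (1.08, 0.0887), or either 12 h library (1.35 each, 0.0766 and 0.0770), and the 12 h call without TGFβ 12 h replicate 2 (1.32, 0.0619), all by edgeR.

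Plaur (gene identifier 18793), which encodes the receptor of uPA, lies at chr7:25247519-25260892 on the plus strand of NCBIM37. Its counts were 728 and 808 in vehicle, 1644 and 1427 at 2 h, and 1676 and 1646 at 12 h. The TMM-normalized levels were 42.9 and 51.5 CPM in vehicle, 83.2 and 72.0 CPM at 2 h, and 73.1 and 84.6 CPM at 12 h. Both vehicle libraries lay below all 4 TGFβ libraries, and the 2 times overlapped. Here the higher replicate was not the same in each group: it was replicate 1 at 2 h and replicate 2 in vehicle and at 12 h.

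The mean of Plaur was 47.2 CPM ± 6.10 (SD, n = 2) in vehicle, 77.6 CPM ± 7.92 at 2 h and 78.8 CPM ± 8.13 at 12 h. The rise was a log2FC of 0.72 at 2 h (SE 0.143, edgeR adjusted p = 0.0203) and of 0.74 at 12 h (SE 0.143, edgeR adjusted p = 0.00641). From 2 h to 12 h the fitted difference was 0.02 on the log2 scale (SE 0.141, edgeR adjusted p = 0.918), so the level reached at 2 h and that at 12 h were not told apart. The share of tested genes with a smaller log2FC was 91.9% at 2 h and 88.0% at 12 h. The 2 h call was lost with only the 2 groups compared (log2FC 0.71, adjusted p = 0.0570) and without vehicle replicate 1 (0.59, 0.128) or either 12 h library (0.71 each, 0.0547 and 0.0550), and the 12 h call without TGFβ 12 h replicate 2 (0.62, 0.0607), all by edgeR.

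Plat (gene identifier 18791), the gene of tPA, lies at chr8:23868216-23893319 on the plus strand of NCBIM37. It gave 1290 and 1280 reads in vehicle, 1404 and 1344 at 2 h, and 1802 and 1513 at 12 h, which after scaling were 76.0 and 81.6 CPM, 71.1 and 67.8 CPM, and 78.5 and 77.7 CPM. The 2 h libraries were both lower than the vehicle libraries and than the 12 h libraries, and the 12 h libraries fell inside the vehicle range. The means were 78.8 CPM ± 3.97 (SD, n = 2), 69.4 CPM ± 2.29 and 78.1 CPM ± 0.580.

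The log2FC of Plat was -0.18 at 2 h (SE 0.0958, edgeR adjusted p = 0.263) and -0.01 at 12 h (SE 0.0956, edgeR adjusted p = 0.934). The 12 h libraries differed from the 2 h libraries by 0.17 (SE 0.0955, edgeR adjusted p = 0.214). None of the 3 differences passed the test, although the groups did not overlap at 2 h. The standard errors of Plat were the smallest of the 3 tested members in each comparison. Of the tested genes, 30.6% had a smaller log2FC than Plat at 2 h and 48.0% at 12 h.

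The calls of the members were set beside those of the whole table. At 2 h, 2 of the 3 tested members were called higher and 0 lower, while 9.91% of all tested genes were called higher and 5.25% lower. At 12 h again 2 of 3 were higher and 0 lower, against 21.8% and 21.5% of all genes. The counts of 0 lower were the same by limma-voom and DESeq2 and at an unadjusted p under 0.05 in edgeR. Between 12 h and 2 h no member was called in either direction by edgeR, limma-voom or DESeq2, nor at an unadjusted p under 0.05, against 15.2% higher and 18.9% lower. The 3 tested members passed the filter on low values in each of the 6 libraries, so none entered through the group in which it was high. Both TGFβ groups were compared with the same vehicle libraries, so the calls at 2 h and 12 h are not independent of each other. The shares of all genes depend on single libraries. At 2 h they were 4.49% higher and 1.14% lower without vehicle replicate 1, 4.97% and 1.49% without vehicle replicate 2, 5.95% and 2.24% without TGFβ 12 h replicate 1, 5.96% and 2.23% without TGFβ 12 h replicate 2, 11.3% and 8.61% without TGFβ 2 h replicate 1, and 8.57% and 3.46% without TGFβ 2 h replicate 2. At 12 h they were 14.3% and 15.9% without vehicle replicate 1, 12.8% and 13.5% without TGFβ 12 h replicate 1, and 11.6% and 14.1% without TGFβ 12 h replicate 2. Between 12 h and 2 h they were 5.50% and 9.09% without TGFβ 12 h replicate 1, and 5.34% and 9.77% without TGFβ 12 h replicate 2.

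**Figure D1:**
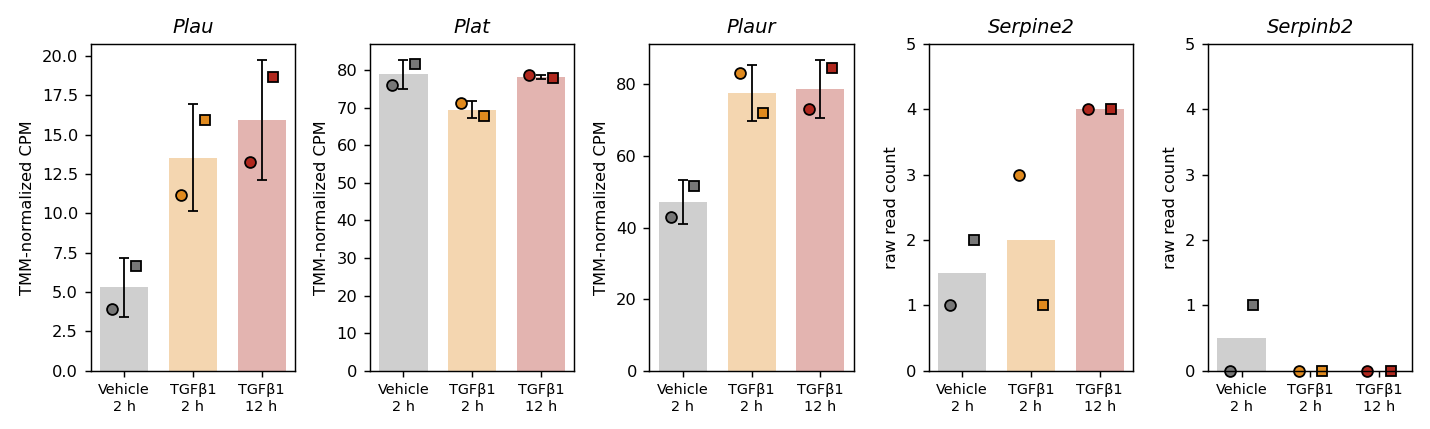
Each panel shows 1 member; bars are group means, circles replicate 1 and squares replicate 2, with TMM-normalized CPM on the vertical axis for Plau, Plat and Plaur (error bars are the SD of 2 libraries) and raw read counts for Serpine2 and Serpinb2. The TGFβ libraries of Plau (11.1 to 18.6 CPM) and Plaur (72.0 to 84.6 CPM) lie above both vehicle libraries, Plat stays between 67.8 and 81.6 CPM, and the inhibitor genes have at most 4 reads in a library.

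**Figure D2:**
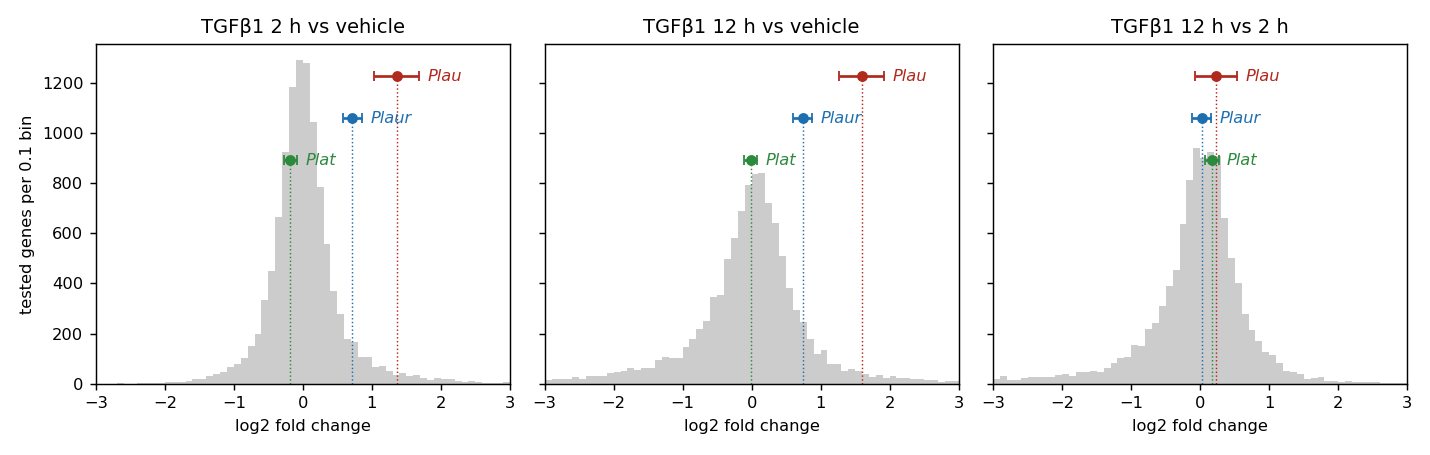
Grey bars count the tested genes by log2 fold change in bins of width 0.1 for each comparison, genes beyond the axis ends are not drawn, and points with bars mark the log2FC and SE of the 3 tested members at heights chosen for legibility. Plau and Plaur sit in the right part of the distribution against vehicle at both times, Plat sits within its bulk, and in the comparison of 12 h with 2 h the 3 genes lie close together at 0.02 to 0.23.

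Both inhibitor genes fell under the filter and were not tested. Serpine2 (gene identifier 20720, chr1:79790772-79855271, minus strand of NCBIM37) had 1 and 2 reads in vehicle, 3 and 1 at 2 h, and 4 and 4 at 12 h. Summed over the 2 libraries of a group this was 0.0969 reads per 1000000 counts in vehicle (exact Poisson 95% interval 0.0200 to 0.283), 0.0988 at 2 h (0.0269 to 0.253) and 0.182 at 12 h (0.0786 to 0.359). The intervals, which cover counting error only, overlap widely, and a difference in protease nexin 1 RNA was not detectable at this depth. With no filter on low counts, edgeR gave Serpine2 an adjusted p of 0.988 at 2 h and 0.549 at 12 h.

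Serpinb2 (gene identifier 18788, chr1:109408000-109432055, plus strand of NCBIM37) had a single read in the table, in vehicle replicate 2. The vehicle group thus stood at 0.0323 reads per 1000000 counts (exact Poisson 95% interval 0.000818 to 0.180). The 0 reads at 2 h allow a level of up to 0.0741 reads per 1000000 counts, taken as 3 counts over the group, and those at 12 h up to 0.0683, while the exact Poisson 95% interval used above reaches 0.0911 and 0.0840. No direction can be read from these counts, and PAI-2 RNA was not detected at either TGFβ time.

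Set on a common scale per length of the merged exons in the GENCODE annotation of NCBIM37, Plaur and Plat were the most abundant of the 5 genes, Plau was lower and both inhibitor genes were lowest. Plaur stood at 33.8 CPM per kb ± 4.37 (SD, n = 2) in vehicle and Plat at 31.1 ± 1.57, and their libraries overlapped, at 30.7 to 36.9 for Plaur and 30.0 to 32.2 for Plat. At 2 h Plaur, at 51.6 to 59.6 CPM per kb, lay above Plat, at 26.8 to 28.1. At 12 h the order was the same, with Plaur at 52.3 to 60.6 CPM per kb and Plat at 30.7 to 31.0. Plau came next in each group, at 2.26 CPM per kb ± 0.810 in vehicle, 5.78 ± 1.45 at 2 h and 6.81 ± 1.63 at 12 h. Serpine2 followed at 0.0243, 0.0264 and 0.0496 CPM per kb and Serpinb2 at 0.0136, 0 and 0, with the vehicle ranges of both inhibitor genes overlapping. The activator gene that rose was thus the less abundant one per length in every library.

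Because a ratio of counts within a library needs no scaling, the relation between the 2 activator genes was also read that way. There were 0.0519 and 0.0813 Plau reads for each Plat read in vehicle, 0.157 and 0.235 at 2 h, and 0.169 and 0.240 at 12 h. The ratio of Plau to Plat was 2.95-fold higher at 2 h (1.56 on the log2 scale, pooled SD 0.436) and 3.10-fold higher at 12 h (1.63, pooled SD 0.411), without overlap between TGFβ and vehicle libraries. The ratio of Plau to Plaur was 0.0920 and 0.129 in vehicle, 0.134 and 0.221 at 2 h, and 0.181 and 0.221 at 12 h, so the lowest TGFβ library was only just above the higher vehicle library. The ratio of Serpine2 to Plau rested on 1 to 4 Serpine2 reads, lay between 0.00316 and 0.0192 in the 6 libraries, and differed from vehicle by -1.37 on the log2 scale at 2 h (pooled SD 1.07) and -0.49 at 12 h (pooled SD 0.223). The 2 h value was -0.31 without TGFβ 2 h replicate 2 and -2.42 without TGFβ 2 h replicate 1, so single libraries set its size, and the 12 h value was -0.31 without vehicle replicate 2. Each of these comparisons of 2 against 2 libraries gave a two-sided exact permutation p of 0.333, which is the smallest this design allows, so none could reach 0.05.

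The genes whose pattern over the 6 libraries was most like that of a member were found by the root mean square difference of log2 CPM after centring each gene on its vehicle mean, with 0.25 CPM added. For Plau these were Add2, the adducin gene of the membrane skeleton, at 0.159 and Soga1 at 0.168. Add2 had a log2FC of 1.40 at 2 h and 1.46 at 12 h, and Soga1 of 1.55 and 1.63. For Plaur they were Xbp1, a transcription factor of the unfolded protein response, at 0.0614 and Rara, a retinoic acid receptor, at 0.0956. Xbp1 had a log2FC of 0.71 and 0.81, and Rara of 0.76 and 0.78. For Plat they were Eif2s2, a subunit of the translation initiation factor eIF2, at 0.0243 and Micu2, a regulator of the mitochondrial calcium uniporter, at 0.0362, both at a log2FC of -0.18 at 2 h and 0.01 at 12 h. With 1 CPM added in place of 0.25 CPM, Dusp8 replaced Soga1 for Plau.

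The nearest tested gene on each side of each tested member was read in the same fit. Only tested genes whose symbol had a single match in the GENCODE annotation of NCBIM37 were placed. Other genes, untested or unmatched, can therefore lie between a member and the genes named. Plaur lies between Kcnn4, a calcium-activated potassium channel gene with its start site 92.2 kb away, and Cadm4, a cell adhesion gene 19.5 kb away. Kcnn4 rose by a log2FC of 1.42 at 2 h (edgeR adjusted p = 0.00126) and 1.68 at 12 h (0.000185), and Cadm4 by 0.92 (0.00680) and 1.89 (0.000145). Both of these genes near Plaur were thus called higher at both times, although Cadm4 at 2 h lost its call without vehicle replicate 2 (log2FC 0.87). Plau lies between Camk2g, 42.6 kb away, and Vcl, the vinculin gene of focal adhesions, 92.8 kb away. Camk2g fell by 0.44 on the log2 scale at 2 h (edgeR adjusted p = 0.0481) and was at -0.09 at 12 h (0.554). Its 2 h call was lost whichever of the 6 libraries was left out (edgeR adjusted p = 0.0610 to 0.251). Vcl was at 0.20 at 2 h (0.278) and rose by 0.86 at 12 h (0.00133). Plat lies between Ikbkb, a kinase gene of NF-κB signaling 51.2 kb away, and Ap3m2, 47.9 kb away. Ikbkb was at 0.21 at 2 h (edgeR adjusted p = 0.232) and rose by 0.42 at 12 h (0.0157), while Ap3m2 fell by 0.97 (0.0112) and by 0.71 (0.0128). Without vehicle replicates 1 or 2 the calls of Ap3m2 were lost at 2 h (edgeR adjusted p = 0.0681 and 0.0621) and at 12 h (0.0611 and 0.0557), and at 12 h also without TGFβ 12 h replicates 1 or 2 (0.0828 and 0.0796). That of Ikbkb at 12 h was lost without vehicle replicate 1 (0.114), without either 12 h library (0.0750 and 0.0982) and when libraries were scaled to total counts (0.0722).

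**Figure D3:**
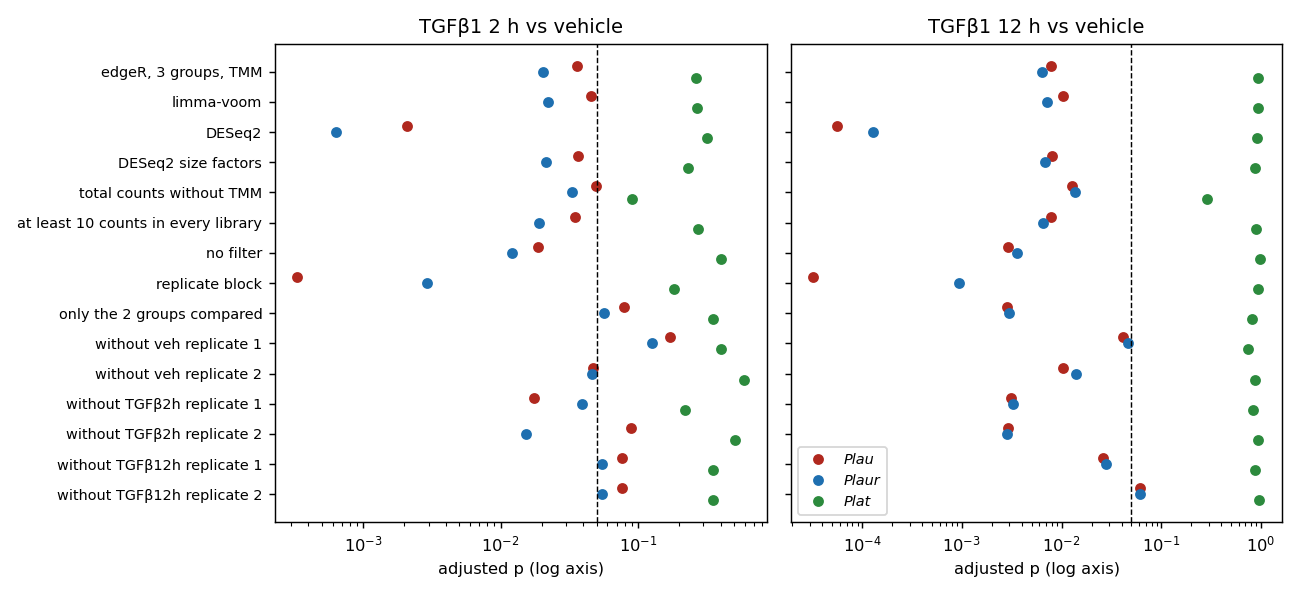
Points give the edgeR, limma-voom or DESeq2 adjusted p (log axis) of the 3 tested members under each way of fitting, at 2 h and 12 h against vehicle, and the dashed line marks 0.05. Plau and Plaur lie left of the line under every full-library setting at 12 h and cross it at 2 h when the fit holds only the 2 groups compared or loses certain libraries, and Plat lies right of the line throughout.

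The wider system was read from lists of 60 further genes, of which 32 were tested. At 2 h, 1 was called higher (F3) and 2 lower (F2rl1 and Lypd6), where 9.91% of all tested genes were higher and 5.25% lower. With the replicate number as a block, 2 were called higher and 4 lower at 2 h, where 16.4% of all tested genes were higher and 12.7% lower, and the further ones were Anxa2 (log2FC 0.51, edgeR adjusted p = 0.00900), Serpini1 (-0.64, 0.0374) and Lypd6b (-1.02, 0.0375). Without a filter on low counts 5 were called at 2 h, where 6.96% of all genes then tested were higher and 3.58% lower. At 12 h, 12 were higher and 13 lower, against 21.8% and 21.5% of all tested genes. Of these, Tfpi and Pros1 passed the filter on low values only with the 12 h libraries, where they were high, and Ly6a and Lypd6b only with the vehicle libraries, where they were high, so their calls were partly set by the filter. Without such genes, 10 of 28 were higher and 11 lower at 12 h, against 21.7% and 21.1% of the 10692 other tested genes. At 12 h the median log2FC was -0.06 over the 32 genes and 0.02 over all tested genes. Plg, the gene of plasminogen itself, had no read in any library.

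Of 12 genes of plasminogen, its activation and its direct inhibitors, 2 were tested, and 1 rose and 1 fell at 12 h. With so few genes in each of the lists, their counts are read against the same 21.8% of all tested genes called higher and 21.5% called lower at 12 h. Serpini1, the neuroserpin gene that encodes a tPA inhibitor, rose at 12 h by 1.70 (edgeR adjusted p = 0.00333), and Habp2, a plasma protease gene, fell by 1.82 (0.000151).

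Of 5 plasminogen receptor genes, all tested, Anxa2 rose by a log2FC of 1.29 at 12 h (edgeR adjusted p = 0.000711) and Plgrkt fell by 1.02 (0.000660). Eno1 and Hmgb1 share sequence with near-identical copies, so their counts of uniquely mapped reads are uncertain. Of 8 genes of clearance receptors and uPAR partners, 6 were tested and 5 fell at 12 h. Among them Lrp1, the endocytic receptor that takes up complexes of uPA with its inhibitors, fell by 0.95 on the log2 scale (edgeR adjusted p = 0.000502). Vldlr fell by 1.57 (0.000459), Sorl1 by 1.37 (0.000328), Sort1 by 1.54 (0.00251) and Igf2r by 0.62 (0.00511). Mrc2 of the same list was under the filter and went the other way at 12 h. It had 7 and 3 reads in vehicle, 2 and 0 at 2 h, and 21 and 19 at 12 h. With no filter its log2FC for 12 h against 2 h was 4.06 (edgeR adjusted p = 0.00856).

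Of 11 genes of the thrombin and tissue factor axis, 6 were tested, and 5 rose at 12 h, Tfpi and Pros1 among them. The thrombin receptor gene F2r rose by a log2FC of 2.39 (edgeR adjusted p = 0.000244) and the tissue factor gene F3 by 1.24 (0.00106), F3 also at 2 h by 0.71 (0.0265). Procr, the endothelial protein C receptor gene, rose by 1.68 (edgeR adjusted p = 0.00175), Pros1, the protein S gene, by 1.20 (0.0108), and Tfpi, the tissue factor pathway inhibitor gene, by 0.95 (0.0377). The call of Pros1 was lost by edgeR without vehicle replicate 1 or either 12 h library (adjusted p = 0.0505 to 0.0750), and that of Tfpi in DESeq2 (0.134), with total-count scaling (0.0582) and without either vehicle library (0.129 and 0.157). Thbd, the thrombomodulin gene, was under the filter and went the other way, with 40 and 28 reads in vehicle, 10 and 12 at 2 h and 13 and 12 at 12 h; with no filter its log2FC was -1.89 at 2 h (edgeR adjusted p = 0.0152) and -1.80 at 12 h (0.00628). F2rl1, a receptor cut by trypsin-like proteases, fell by 0.74 at 2 h (0.0208) and was at 0.08 at 12 h (0.677), or -0.04 when libraries were scaled to total counts. Of 14 other clade B serpins, the family of Serpinb2, 7 were tested; 5 rose and 1 fell at 12 h. The log2FC of those that rose was 1.96 for Serpinb1a (edgeR adjusted p = 0.00264), 1.20 for Serpinb9b (0.00114), 1.03 for Serpinb6b (0.000989), 0.96 for Serpinb5 (0.00490) and 0.66 for Serpinb6a (0.00460), and Serpinb8 fell by 1.07 (0.00522). Of 10 other genes with the Ly6/uPAR domain that Plaur carries, 6 were tested and 5 fell at 12 h, among them Ly6a, from 38 reads in each vehicle library to 2 in each 12 h library, and Lypd6b, from 37 and 32 reads to 1 in each, which are the 2 genes tested only because of their vehicle levels. Lynx1 fell by 2.22 at 12 h (edgeR adjusted p = 0.00115) and Ly6e by 0.55 (0.00996), a call that Ly6e lost without vehicle replicate 2 (0.0675) and without TGFβ 12 h replicate 1 (0.0720). Lypd6 fell by 1.87 at 2 h (edgeR adjusted p = 0.0223) and by 1.80 at 12 h (0.00934), and its 2 h value ran from -2.50 without TGFβ 2 h replicate 1 to -1.45 without TGFβ 2 h replicate 2. The 2 h calls of F3, F2rl1 and Lypd6 were lost by edgeR with only the 2 groups compared (adjusted p = 0.0792, 0.0691 and 0.0584), without vehicle replicate 1 (0.143, 0.124 and 0.111) and without either 12 h library (0.0599 to 0.0758). Those of F2rl1 and Lypd6 were also lost without vehicle replicate 2 (0.0512 and 0.0640), that of F2rl1 without TGFβ 2 h replicate 2 (0.0509), and the 12 h call of Lypd6 without TGFβ 12 h replicate 1 (0.0815).

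**Figure D4:**
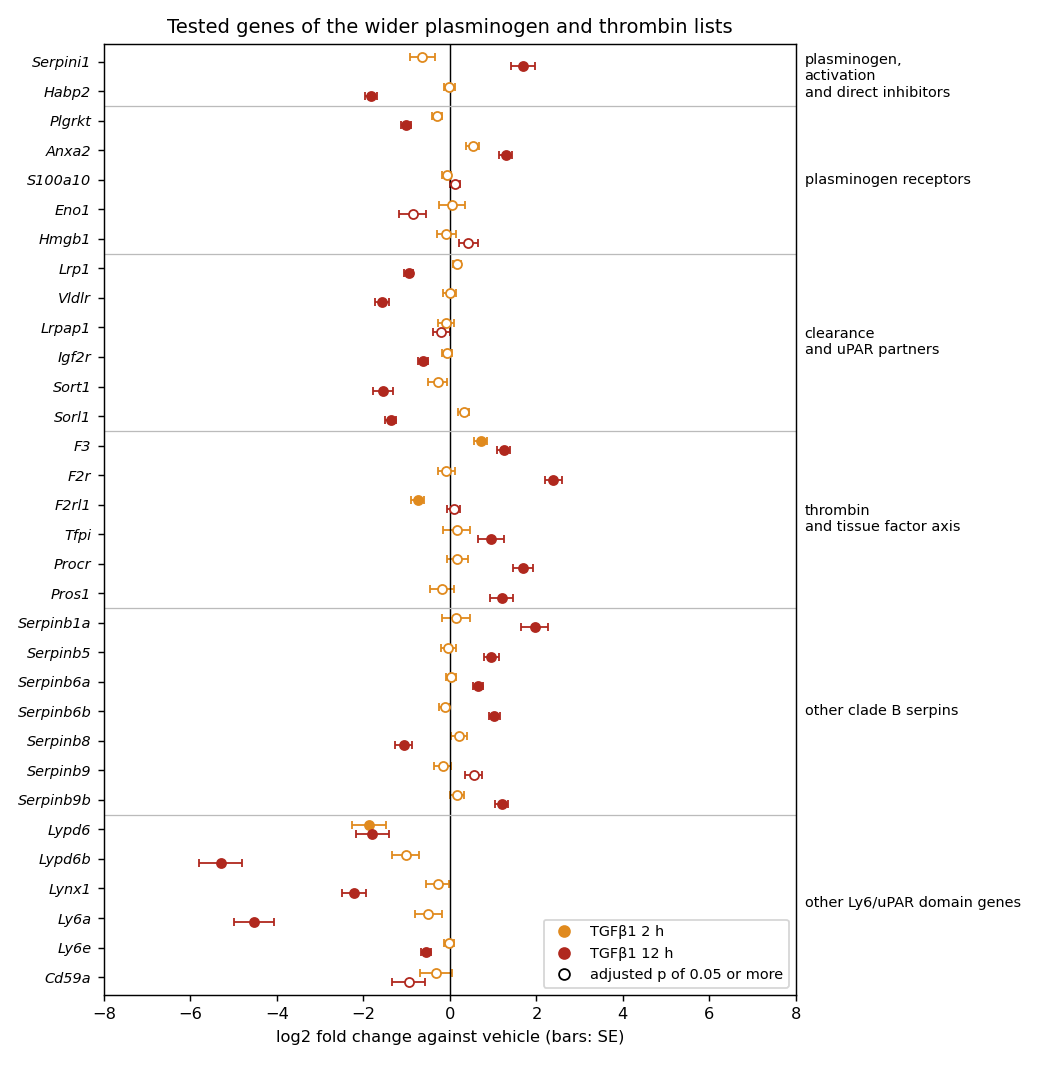
Horizontal positions give the log2 fold change against vehicle, with SE bars, of the 32 tested genes of the 6 lists at 2 h (orange) and 12 h (red), filled where the edgeR adjusted p is under 0.05 and open otherwise. Of the 32 genes 3 are filled at 2 h and 25 at 12 h, with the clearance receptors and Ly6/uPAR domain genes to the left at 12 h and most genes of the thrombin and tissue factor axis to the right.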

How the data were processed

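Gene expression was measured by stranded total RNA-seq (single-end reads of 50 bases) in 6 NMuMG libraries. Per the paper's methods and the labels, the authors aligned quality-filtered reads to mm9 with subjunc of Rsubread (Subread), kept uniquely mapped reads, ran a duplicate-removal step with SAMtools 0.1.19 and summed reads over exons of UCSC genes on the reverse strand with featureCounts. The values deposited by the authors are raw counts, with no normalization. Counts of Plaur at 12 h (1676 and 1646) exceeded the 1396 bases of its merged exons in GENCODE, so counts were not held to 1 read per position. Antisense reads were kept apart by strand, and genes with near-identical copies lose reads to the uniqueness filter.

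Counts were tested in R 4.3.3 with edgeR 4.0.16 (quasi-likelihood, TMM factors, 3 groups in a single fit, genes at 2 CPM or more in 2 or more libraries), with Benjamini-Hochberg adjustment over 11080 genes within each comparison and a call at an adjusted p under 0.05. The study's methods used limma with voom, which is an alternative here beside DESeq2 1.42.0. CPM are reads per 1000000 reads in tested genes, with TMM factors of 0.961 to 1.07. The SE is the absolute log2FC divided by the square root of F, and all tests are two-sided. Ratios, positions and motifs were computed in Python 3.11.15 (scipy 1.17.1, pandas 2.3.3, numpy 2.4.6). The code of the fit was tried on simulated counts with known changes, which were larger than that of Plaur. Every simulated gene had the same spread, and no difference was shared by replicates. The trial therefore does not bear on how reliable the calls here are. Depth sets a floor of 3 counts, 0.131 to 0.191 CPM per library. The p-values measure the spread between samples labelled biological replicates. The main fit has no replicate term, so this spread includes any difference shared by same-numbered replicates.

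The members and the gene lists were chosen with earlier results of these data known. The genes named are the members, the list genes called at 2 h or 12 h against vehicle (at most 6 per list, by absolute log2FC at 12 h), the 2 tested genes most like each tested member and the nearest tested gene placed on each side. List genes outside this rule are named for a limit or for a call under an alternative or between the 2 times. They are Plg, Thbd, Mrc2, Eno1, Hmgb1, Cpb2, Ly6c1 and Serpinb9. Some list genes are not reported here and enter no list count. The ratios of Plau to Plat and of Plau to Plaur were added after the data had been seen. Same-numbered replicates deviated together from their group means (correlation across genes 0.708 for vehicle and 2 h, 0.263 for vehicle and 12 h, 0.392 for 2 h and 12 h). This pairing comes from the data, since the labels give only the numbers. Alternatives were other tests, scalings and filters, the replicate block, fits of only 2 groups, and each library left out in turn. The authors' other assays were not used here.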

Additional observations from a re-analysis of the deposited data

Results flagged for a closer look

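No member was flagged. The 25 genes of the wider lists whose response at 12 h differed from that at 2 h, by edgeR's test of the difference itself, are given here as the log2FC of 12 h against 2 h. They are 13 higher and 12 lower of 32 tested, against 15.2% and 18.9% of all tested genes, or 12 and 10 of 28 without the 4 genes that passed the filter on low values only with the libraries of 1 group (Tfpi, Pros1, Ly6a and Lypd6b). Without TGFβ 12 h replicate 1 the list calls were 18, with 5.50% of all genes higher and 9.09% lower, and without TGFβ 12 h replicate 2 they were 17, with 5.34% and 9.77%. Among activation and inhibitor genes this was 2.33 for Serpini1 and -1.80 for Habp2. The plasminogen receptor gene Anxa2 differed by 0.76 and Plgrkt by -0.72. Among clearance receptors and uPAR partners it was -1.12 for Lrp1, -1.56 for Vldlr, -1.69 for Sorl1, -1.26 for Sort1 and -0.56 for Igf2r. In the thrombin and tissue factor axis it was 2.48 for F2r, 0.53 for F3, 0.83 for F2rl1, 1.51 for Procr and 1.38 for Pros1. Of the clade B serpins, Serpinb1a differed by 1.81, Serpinb6b by 1.15, Serpinb9b by 1.04, Serpinb5 by 1.00, Serpinb6a by 0.64 and Serpinb8 by -1.28. Serpinb9, at 0.72, was not called against vehicle and is named after its values were seen. Of the Ly6/uPAR domain genes, Lynx1 differed by -1.93 and Ly6e by -0.53. Lypd6b had a fitted value of -4.28 that rests on 20 and 21 reads at 2 h and 1 read in each 12 h library, and Ly6a had a fitted value of -4.03 that rests on 27 and 38 reads at 2 h and 2 reads in each 12 h library.

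The adjusted p passed 0.05 without TGFβ 12 h replicate 1 for Igf2r (-0.56), F3 (0.44), F2rl1 (0.77), Pros1 (1.29), Serpinb5 (1.01), Serpinb9 (0.70) and Ly6e (-0.48). It did so without TGFβ 12 h replicate 2 for Anxa2 (0.63), Sort1 (-1.15), Igf2r (-0.58), F3 (0.60), Serpinb5 (0.96), Serpinb6a (0.53), Serpinb9 (0.72) and Ly6e (-0.58). The call of F3 was also lost without TGFβ 2 h replicate 1 (0.56) and without TGFβ 2 h replicate 2 (0.50), and that of Serpinb9 without TGFβ 2 h replicate 2 (0.48).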

How the results depend on the processing

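No direction or call given in the report for a member, list gene or neighbour changed under limma-voom or DESeq2 size factors. DESeq2 lost Tfpi at 12 h (0.94, adjusted p = 0.134), and Camk2g at 2 h was lost with no filter and with at least 10 counts in every library, where Ly6a and Lypd6b were no longer tested. Other list genes gained calls: by DESeq2 Anxa2 at 2 h, Eno1 and Serpinb9 at 12 h and Eno1 for 12 h against 2 h, with no filter Anxa2 and Thbd at 2 h, Cpb2, Ly6c1, Serpinb9 and Thbd at 12 h and Cpb2 and Mrc2 for 12 h against 2 h, and with at least 10 counts Thbd at 2 h and 12 h and Tfpi for 12 h against 2 h. The number of list genes called (3 at 2 h, 25 at 12 h, 25 for 12 h against 2 h) was thus 4, 26 and 26 by DESeq2, 5, 29 and 27 with no filter, and 4, 24 and 24 with at least 10 counts. In the same order, the shares of all tested genes called higher and lower were 11.7% and 7.17%, 21.9% and 22.5%, and 16.3% and 20.1% by DESeq2. With no filter they were 6.96% and 3.58%, 15.4% and 16.5%, and 10.7% and 14.3% of 16115 genes, and more list genes were tested. With at least 10 counts they were 9.62% and 5.32%, 20.6% and 20.3%, and 14.4% and 17.5%. The replicate block changed no call of a member, and the 2 h adjusted p by edgeR was 0.000332 for Plau and 0.00292 for Plaur. It called Tfpi for 12 h against 2 h (0.79, edgeR adjusted p = 0.0353). It gave 28 list genes at 12 h, where 27.8% of all tested genes were higher and 27.5% lower. For 12 h against 2 h it also gave 28, where 23.3% were higher and 25.2% lower. The block raised the calls of the wider lists at 2 h from 3 to 6. Those of all genes at 2 h went from 1098 higher and 582 lower to 1813 and 1409. With only the 2 groups compared, the all-gene calls at 2 h were 635 higher and 247 lower, the log2FC of Plau (1.35, adjusted p = 0.0798) and Plaur (0.71, 0.0570) at 2 h lost their calls in edgeR, and 0 members and 0 genes of the lists were called. Scaling to total counts moved the median log2FC of all genes to -0.12 at 2 h and -0.11 at 12 h, gave 854 higher and 975 lower calls at 2 h and 1830 and 3047 at 12 h (2414 and 2385 with TMM), and put F2rl1 at -0.045 at 12 h. When libraries were left out 1 at a time, the log2FC at 2 h was 1.03 to 1.78 for Plau and 0.59 to 0.85 for Plaur, with 0 to 2 members and 0 to 4 list genes called. At 12 h it was 1.26 to 2.01 for Plau, 0.61 to 0.87 for Plaur and -0.067 to 0.036 for Plat (positive without vehicle replicate 2), with 0 to 2 members called, 0 of them without TGFβ 12 h replicate 2. For 12 h against 2 h it was -0.034 to 0.51 for Plau and -0.092 to 0.13 for Plaur, uncalled in each case; Plau was at -0.0016 without TGFβ 2 h replicate 1 and at -0.034 without TGFβ 12 h replicate 2, and Plaur at -0.081 and -0.092 without TGFβ 2 h replicate 2 and TGFβ 12 h replicate 2. F2rl1 was at -0.025 at 12 h without vehicle replicate 2, and Lypd6 at -0.35 and -0.20 for 12 h against 2 h without TGFβ 2 h replicate 2 and TGFβ 12 h replicate 2. The 2 most extreme leave-out values for Lypd6 there were -0.35 and 0.68, and for F2rl1 at 12 h -0.025 and 0.19. With 0.5 counts added, the log2 difference of the ratio of Serpine2 to Plau at 12 h went from -0.49 to -0.77. Where a group was left with 1 library, that library was assumed to vary like the others. The cause of a change was not tested under any alternative. Serpine2 and Serpinb2 lie near the floor of 3 counts, so only large changes of either could be seen.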
